A study of Mus musculus with 15 samples.

Results

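The vitamin, folate and choline transporters are 8 genes whose products carry water-soluble nutrients across the plasma membrane: Slc19a1, Slc46a1 and Folr1 for folate, Slc19a2 and Slc19a3 for thiamine, Slc5a6 for biotin and pantothenate, Slc23a2 for vitamin C and Slc44a1 for choline. The genes were listed by their function, with earlier results of these data known. Each was read from the probe sets that carried its symbol and no other. Where a gene had several, the probe set with the highest mean was taken. Of the 8 genes, 7 had such a probe set, among 19938 genes in all. Slc19a3 was not analysed here, because no probe set carried its symbol alone.

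The values come from microvascular endothelial cells, which line the small blood vessels, of the mouse brain, heart and liver. The mice were of the Tie2-GFP strain on an FVB background and 8 to 12 weeks old; their green fluorescent protein is driven by the promoter of Tek, whose product Tie2 is an angiopoietin receptor of endothelium. After removal of visible large vessels, each tissue was digested for 60 min, and cells positive for GFP were sorted straight into lysis buffer. The 5 brain samples were pools of 6 mice each, the 5 heart samples pools of 4 and the 5 liver samples pools of 2, with males and females in equal number. Tek is also transcribed in some blood-forming cells and their progeny, so the gate is not limited to endothelium. Brain and heart were digested warm with collagenase, and brain was also treated with trypsin, whereas liver went into dispase at room temperature, was spun to remove hepatocytes and passed over Percoll. The tissue cannot be told apart from the enzyme, the temperature or the number of mice per pool. Amplified cDNA from 5 ng of RNA per pool was read on Affymetrix gene arrays, and the deposited values are log2 intensities. Replicates are separate pools as far as the labels say, and nothing states that they were prepared on separate days.

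Mammals make none of these vitamins except vitamin C, which the mouse makes in its liver, and so each tissue depends on carriers to take them up from blood. In the brain the endothelium is sealed by tight junctions and forms the blood-brain barrier, so a water-soluble nutrient has to pass through the endothelial cell on a carrier or enter across the choroid plexus, the epithelium that makes cerebrospinal fluid. In the liver the sinusoidal endothelium is perforated, and solutes of the plasma reach the hepatocytes through its pores. Folate enters cells by several systems. They are a reduced folate carrier that works at neutral pH, a proton-coupled transporter that works in acid compartments and a membrane-anchored receptor that brings folate in by endocytosis.

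Slc5a6 was higher in the brain arrays than in both other tissues, and Slc46a1 was higher in the liver arrays than in both other tissues. Folr1 was higher in brain than in heart, by less. Slc19a1, Slc19a2, Slc23a2 and Slc44a1 passed no test between tissues on the probe sets fixed by the rule. A gene was called where limma's adjusted p (Benjamini-Hochberg over all 19938 genes) was under 0.05. In brain against heart, 2 of the 7 measured members were higher, where 8.29% of all genes were higher, and 0 were lower, where 7.11% of all genes were. In brain against liver, 1 was higher and 1 lower, against 11.1% and 14% of all genes. In heart against liver, 0 were higher and 1 was lower, against 11.5% and 16.3% of all genes. At limma's unadjusted p under 0.05 the count of members lower in brain than in heart was again 0, and the count higher in heart than in liver was 1, which was Slc19a1. Against both others at once, 1 member stood above both other tissues in brain, where 4.7% of all genes did, and 1 stood higher in liver than in both, where 10.4% did. No member was called lower in brain than in both (2.82% of all genes), higher or lower in heart than in both (3.73% and 3.27%) or lower in liver than in both (5.64%). At unadjusted p these 4 counts were 0, 0, 0 and 1, the last again Slc19a1. All shares of all genes here are at adjusted p, and those at unadjusted p are not given. The median difference of the members was 0.10 log2 units for brain minus heart, -0.062 for brain minus liver and -0.17 for heart minus liver, beside -0.028, -0.002 and 0.032 over all genes.

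**Figure D1:**
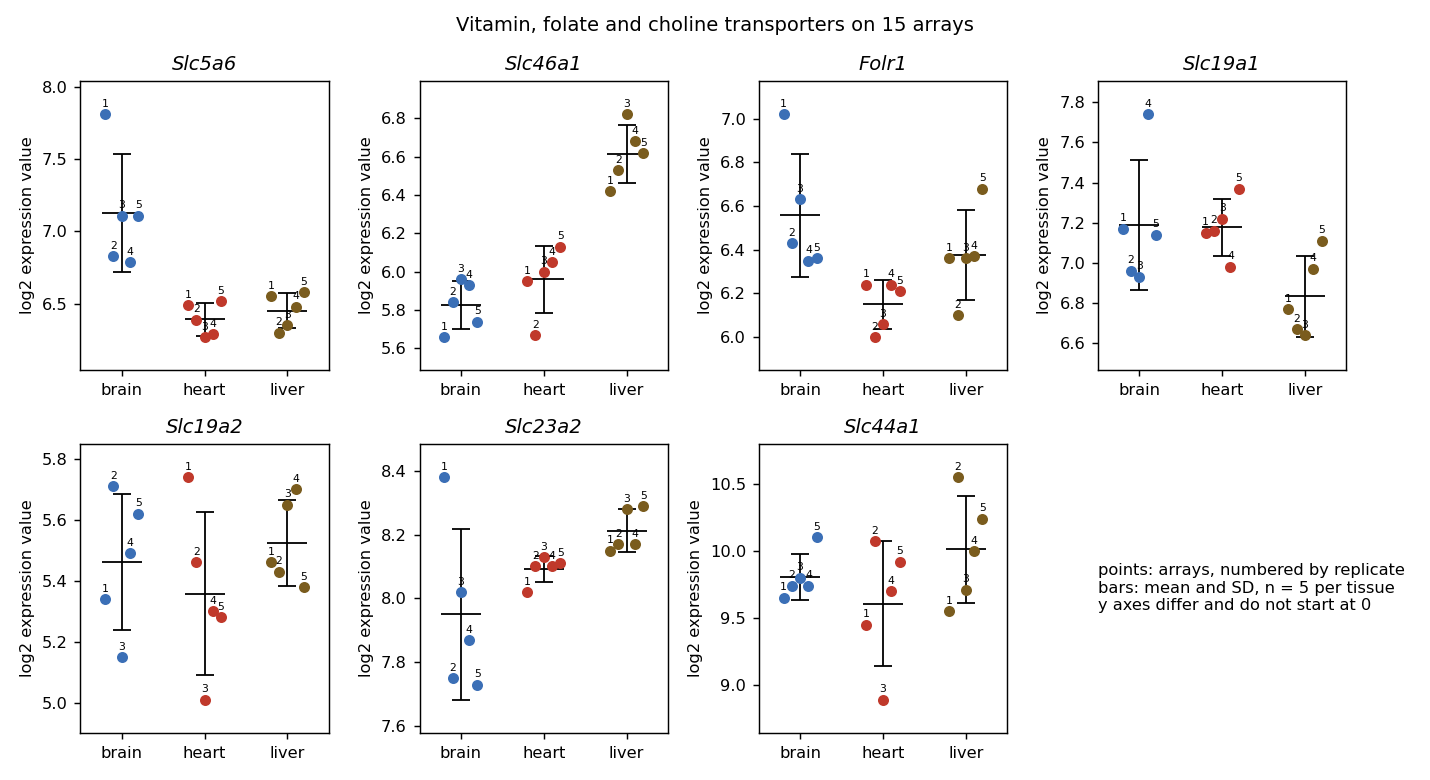
Log2 intensity of each measured member on every array, with brain, heart and liver side by side; points are arrays (5 per tissue) and bars mark the mean ± SD. The brain points of Slc5a6 and the liver points of Slc46a1 lie above every point of the other tissues, and brain replicate 1 is the highest brain point of Slc5a6, Folr1 and Slc23a2.

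Slc5a6 encodes the sodium-dependent multivitamin transporter, which carries biotin, pantothenate and lipoate into cells. Its log2 intensities in the brain replicates 1 to 5 were 7.81, 6.83, 7.11, 6.79 and 7.11. In the heart replicates they were 6.49, 6.39, 6.27, 6.29 and 6.52, and in the liver replicates 6.55, 6.30, 6.35, 6.48 and 6.58. Every brain array lay above every heart and liver array, and brain replicate 1 stood above the other 4 brain arrays. Brain averaged 7.13 ± 0.41, heart 6.39 ± 0.11 and liver 6.45 ± 0.12 (SD, n = 5 arrays each). The brain mean exceeded the heart mean by 0.74 log2 units (SE 0.15; limma adjusted p = 0.00164), which is 1.67-fold. It exceeded the liver mean by 0.68 (SE 0.15; limma adjusted p = 0.00194), which is 1.60-fold. Heart and liver were not called different: heart minus liver was -0.06, with a 95% interval from -0.37 to 0.25. Without brain replicate 1 the difference from heart was 0.57 (limma adjusted p = 4.88e-04) and that from liver 0.51 (limma adjusted p = 7.57e-04). With each array centred on its pan-endothelial genes they were 0.63 (limma adjusted p = 0.00405) and 0.44 (limma adjusted p = 0.0211).

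Of the marker lists of other brain cells, those of choroid plexus, pericytes and astrocytes had their highest brain mean on brain replicate 1. The astrocyte list was at 6.19 there and at 5.85 to 5.92 on the other brain arrays. The neuron list (5.10 there, 5.06 to 5.17 in brain) and the oligodendrocyte list (5.49 there, 5.39 to 5.59 in brain) were not highest on that array. The choroid plexus epithelium list had 10 of its 12 genes measured, of which 5 were above both other tissues in brain and 0 lower. Its mean log2 intensity in the brain replicates 1 to 5 was 7.10, 6.49, 6.45, 6.30 and 6.19, against 5.21 to 5.33 on the heart arrays and 5.23 to 5.67 on the liver arrays. Among its defining genes, Ttr, the thyroxine carrier of cerebrospinal fluid, lay between 12.08 and 12.77 in brain and was highest on brain replicate 2. Kcnj13, also on the list and named after its values were seen, averaged 8.30 in brain and 8.26 in heart. Kl, the membrane protein klotho, was at 7.26 in brain replicate 1 and between 5.24 and 5.80 in the other brain arrays. Otx2, a transcription factor of that epithelium, was at 5.58 in brain replicate 1 and between 4.49 and 4.78 in the others. The list of pericytes and smooth muscle, the contractile cells around vessels, averaged 7.71, 6.27, 6.66, 6.81 and 6.06 in the brain replicates, and the heart arrays ranged from 6.52 to 7.89. The pan-endothelial list averaged 9.90 to 10.25 in brain, 9.92 to 10.05 in heart and 9.74 to 9.95 in liver. Of its 29 genes, 4 were higher and 5 lower in brain than in both others, 3 and 3 in heart and 5 and 7 in liver. Centring on this list therefore also carries its own tissue differences into the other genes. The share of these other cells in the 0.57 and 0.51 that remained without brain replicate 1 was not tested. In such bulk samples fewer cells of a type and less RNA per cell cannot be told apart.

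**Figure D2:**
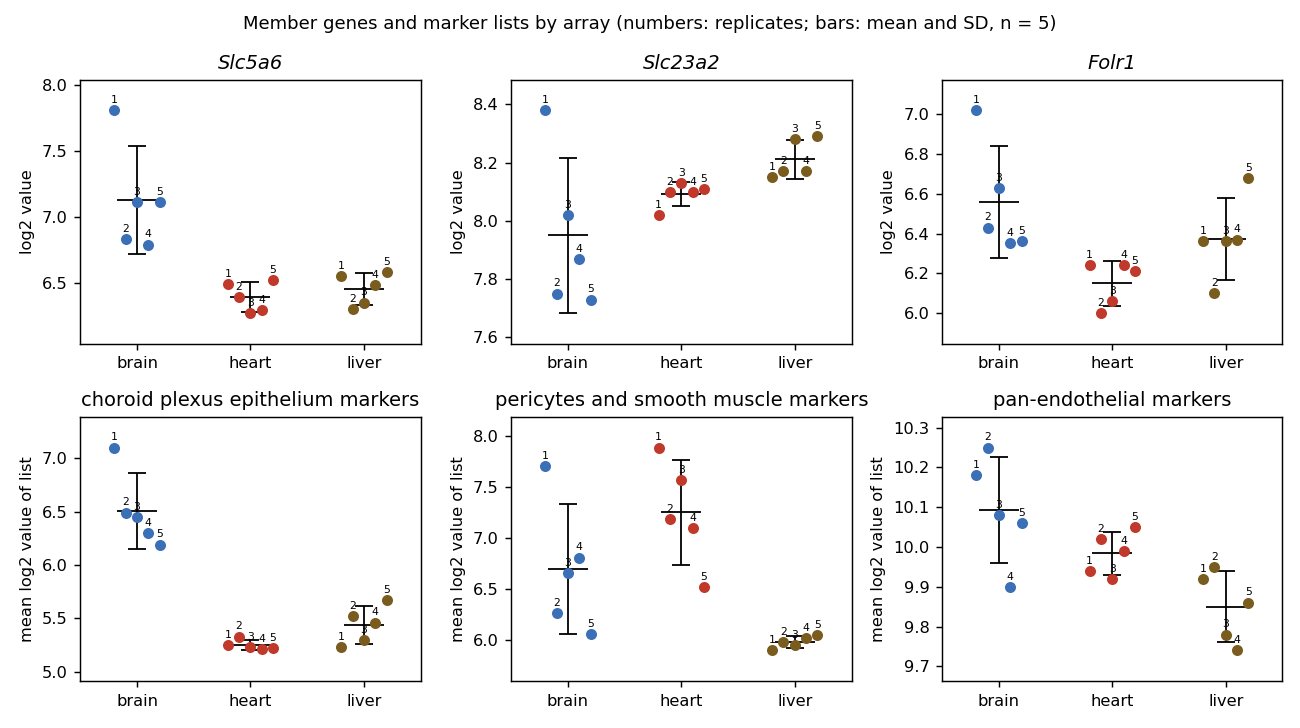
Log2 intensity of Slc5a6, Slc23a2 and Folr1 on every array of the 3 tissues, with the mean log2 intensity of marker lists beside them. The lists are choroid plexus epithelium, pericytes and smooth muscle, and pan-endothelial genes. A point is an array, numbered by replicate, and bars mark the mean ± SD. Choroid plexus and pericyte markers are highest within brain on replicate 1.

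The genes whose log2 intensities followed Slc5a6 most closely over the 15 arrays were Clic6 (Pearson r = 0.937), Slc4a10 (0.930) and Rsph1 (0.924). Clic6, an intracellular chloride channel protein that is itself on the choroid plexus list, had brain values of 7.37, 5.90, 5.90, 5.62 and 5.50. Slc4a10, a sodium-coupled bicarbonate transporter, had brain values of 7.47, 5.57, 6.02, 5.02 and 5.05. Rsph1, a component of the radial spokes of motile cilia, had 7.13, 5.73, 6.29, 6.06 and 6.23. Each of the 3 was highest on brain replicate 1. Without that array the closest genes over the other 14 were Axin2 (r = 0.946), Cabyr (0.93) and Grk4 (0.924), and Clic6 then ranked at position 157 with r = 0.855. Axin2, a feedback inhibitor of Wnt signalling, averaged 9.02 in brain over all 5 arrays, 6.41 in heart and 6.56 in liver. These correlations mix the difference between tissues with the spread within them and carry no test.

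Slc46a1 encodes the proton-coupled folate transporter, known for folate uptake in the gut and in acid compartments. Its log2 intensities in the liver replicates 1 to 5 were 6.42, 6.53, 6.82, 6.68 and 6.62. In the brain replicates they were 5.66, 5.84, 5.96, 5.93 and 5.74, and in the heart replicates 5.95, 5.67, 6.00, 6.05 and 6.13. Every liver array lay above every brain and heart array, while brain and heart overlapped. The means were 6.61 ± 0.15 in liver, 5.83 ± 0.13 in brain and 5.96 ± 0.18 in heart (SD, n = 5 arrays each). Brain minus liver was -0.79 log2 units (SE 0.10; limma adjusted p = 5.92e-06), so that liver was 1.73-fold higher. Heart minus liver was -0.66 (limma adjusted p = 5.57e-05), so that liver was 1.57-fold higher. Brain and heart were not called different, at -0.13 with a 95% interval from -0.34 to 0.07.

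Markers of Kupffer cells, the macrophages of the liver sinusoid, and of hepatocytes moved with the liver arrays. All 8 Kupffer cell genes were higher in liver than in both other tissues, and their mean was 7.31, 5.52, 8.00, 7.62 and 5.29 in the liver replicates 1 to 5, against 4.61 to 4.79 in brain and 4.67 to 4.86 in heart. Slc46a1 was highest on liver replicate 3 and lowest on liver replicate 1, both of which had high Kupffer cell markers. With only liver replicates 2 and 5, the arrays lowest in these markers, brain minus liver was -0.75 (limma adjusted p = 0.00054) and heart minus liver -0.62 (limma adjusted p = 0.00308). The Kupffer cell means of these arrays, 5.52 and 5.29, were still above those of every brain and heart array. Of the 15 measured hepatocyte genes of 16, 11 were higher in liver than in both others, with a list mean of 6.63 to 7.26 in liver, 5.48 to 5.58 in brain and 4.97 to 5.09 in heart. Liver replicates 2 and 5, low in Kupffer cell markers, had the highest hepatocyte means, 6.95 and 7.26, beside 6.63 to 6.81 on replicates 1, 3 and 4. Alb, the gene of serum albumin, was at 9.42 to 10.32 on the liver arrays and was also highest on replicates 2 and 5. The part of Kupffer cell or hepatocyte RNA in the Slc46a1 difference was not tested.

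Folr1 encodes folate receptor alpha, which binds folate at the cell surface and is known in the brain from the choroid plexus epithelium. Its log2 intensities in the brain replicates were 7.02, 6.43, 6.63, 6.35 and 6.36, in the heart replicates 6.24, 6.00, 6.06, 6.24 and 6.21, and in the liver replicates 6.36, 6.10, 6.36, 6.37 and 6.68. All brain arrays lay above all heart arrays, and the liver arrays overlapped both. Brain averaged 6.56 ± 0.28, heart 6.15 ± 0.11 and liver 6.37 ± 0.21 (SD, n = 5 arrays each). Brain exceeded heart by 0.41 log2 units (SE 0.13; limma adjusted p = 0.035), or 1.33-fold. The call was lost without brain replicate 1, at 0.29 (limma adjusted p = 0.0864), the array with the highest choroid plexus markers. It was also lost without brain replicate 3, at 0.39 (limma adjusted p = 0.076), and without heart replicate 2, at 0.37 (0.0868), heart replicate 3, at 0.39 (0.0768), or heart replicate 5, at 0.42 (0.0509). With each array centred on its pan-endothelial genes the difference was 0.30 (limma adjusted p = 0.137). Brain minus liver was 0.19, with a 95% interval from -0.08 to 0.45, and -0.06 after that centring, and heart minus liver was -0.22, from -0.49 to 0.04.

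Slc19a1 encodes the reduced folate carrier, the main route of folate into most cells. On the probe set with the highest mean its log2 intensities were 7.17, 6.96, 6.93, 7.74 and 7.14 in the brain replicates, 7.15, 7.16, 7.22, 6.98 and 7.37 in the heart replicates and 6.77, 6.67, 6.64, 6.97 and 7.11 in the liver replicates. The liver mean of 6.83 ± 0.20 was the lowest, below 7.19 ± 0.33 in brain and 7.17 ± 0.14 in heart (SD, n = 5 arrays each), and the arrays of the 3 tissues overlapped. Brain minus liver was 0.36 (95% interval 0.07 to 0.65; limma adjusted p = 0.069) and heart minus liver 0.34 (0.05 to 0.63; limma adjusted p = 0.0761), so neither passed. Brain minus heart was 0.02 (-0.28 to 0.31) and -0.09 with arrays centred on pan-endothelial genes. Brain minus liver passed without brain replicate 2, at 0.42 (limma adjusted p = 0.0461), brain replicate 3, at 0.42 (0.0425), or liver replicate 5, at 0.43 (0.0354). Heart minus liver passed without brain replicate 4, at 0.34 (limma adjusted p = 0.0197), or liver replicate 5, at 0.41 (0.0388). Without brain replicate 4 brain minus liver was 0.22 (limma adjusted p = 0.183), and with arrays centred on pan-endothelial genes it was 0.12 (limma adjusted p = 0.55) and heart minus liver 0.21 (limma adjusted p = 0.435).

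The annotation ties that Slc19a1 probe set to predicted RefSeq transcripts only, 2 of 2 accessions. A second probe set, tied to 2 curated transcripts, read 6.25, 6.00, 6.01, 5.89 and 5.95 in brain, 6.05, 5.96, 5.80, 5.91 and 6.01 in heart and 5.41, 5.61, 5.70, 5.85 and 5.91 in liver. The curated probe set, which was looked at after the values were known, had the same order of tissues at the liver end. There, brain exceeded liver by 0.32 (SE 0.10; limma adjusted p = 0.019), or 1.25-fold, and heart minus liver was 0.25 (95% interval 0.04 to 0.45; limma adjusted p = 0.0679). With the curated probe sets in place, Slc19a1 and Slc5a6 were the 2 members higher in brain than in liver, where 11.1% of all genes were, and 1 was lower, where 14.1% were.

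Slc44a1 encodes choline transporter-like protein 1, a carrier of choline, the headgroup of phosphatidylcholine. Its probe set with the highest mean, which lists no curated transcript, read 9.65, 9.74, 9.80, 9.74 and 10.10 in the brain replicates, 9.45, 10.07, 8.89, 9.70 and 9.92 in the heart replicates and 9.55, 10.55, 9.71, 10 and 10.24 in the liver replicates. The heart and liver arrays spread widely and the 3 tissues overlapped. Brain averaged 9.81 ± 0.17, heart 9.61 ± 0.46 and liver 10.01 ± 0.40 (SD, n = 5 arrays each), and no difference between tissues was called. Brain minus heart was 0.20 (95% interval -0.23 to 0.63), brain minus liver -0.20 (-0.63 to 0.23) and heart minus liver -0.40 (-0.83 to 0.03). Heart minus liver passed with arrays centred on pan-endothelial genes, at -0.54 (limma adjusted p = 0.0416), and without liver replicates 1, 3 and 4, at -0.79 (limma adjusted p = 0.0386). On this probe set heart replicates 1 and 3 had the lowest Slc44a1 values of the heart. They also had the highest cardiomyocyte markers, with list means of 9.32 and 8.97 beside 7.91 to 8.44 on the other heart arrays. Without both of them brain minus heart was -0.09 (limma adjusted p = 0.823). The other probe set of Slc44a1 had its lowest heart values on replicates 4 and 5, at 8.38 and 8.52, the arrays with the lowest cardiomyocyte markers. A part of cardiomyocyte RNA in these values was not tested.

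The probe set of Slc44a1 tied to curated transcripts read 9.30, 9.38, 9.0, 9.03 and 9.20 in brain, 8.73, 8.82, 8.75, 8.38 and 8.52 in heart and 9.09, 9.10, 9.13, 9.09 and 8.86 in liver. All 5 heart arrays lay below every brain and liver array. Brain exceeded heart by 0.54 (SE 0.10; limma adjusted p = 0.000773), or 1.45-fold, and heart minus liver was -0.41 (SE 0.10; limma adjusted p = 0.00431), so that liver was 1.33-fold higher. Brain and liver were not called different, at 0.13 with a 95% interval from -0.08 to 0.34. With the curated probe sets 1 member, Slc44a1, was lower in heart than in both other tissues, where 3.27% of all genes were, and 0 were higher, where 3.74% were. The calls of brain against heart then read 3 higher and 0 lower, beside 8.29% and 7.12% of all genes, and those of heart against liver 0 higher and 2 lower, beside 11.5% and 16.3%. Against both other tissues 1 member was higher in brain and 0 lower (4.7% and 2.82% of all genes), and 1 was higher in liver and 0 lower (10.4% and 5.66%). Heart had the lowest mean on both probe sets, and heart minus liver was nearly equal, at -0.40 and -0.41. The arrays spread less on the curated probe set, in heart (SD 0.18 beside 0.46) and in liver (0.11 beside 0.40). Brain minus heart differed in size as well, at 0.54 on the curated probe set and 0.20 on the other. Only the curated probe set had calls. Brain minus liver differed in sign between the probe sets, with no call on either. The curated probe set was again looked at after the values were known.

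**Figure D3:**
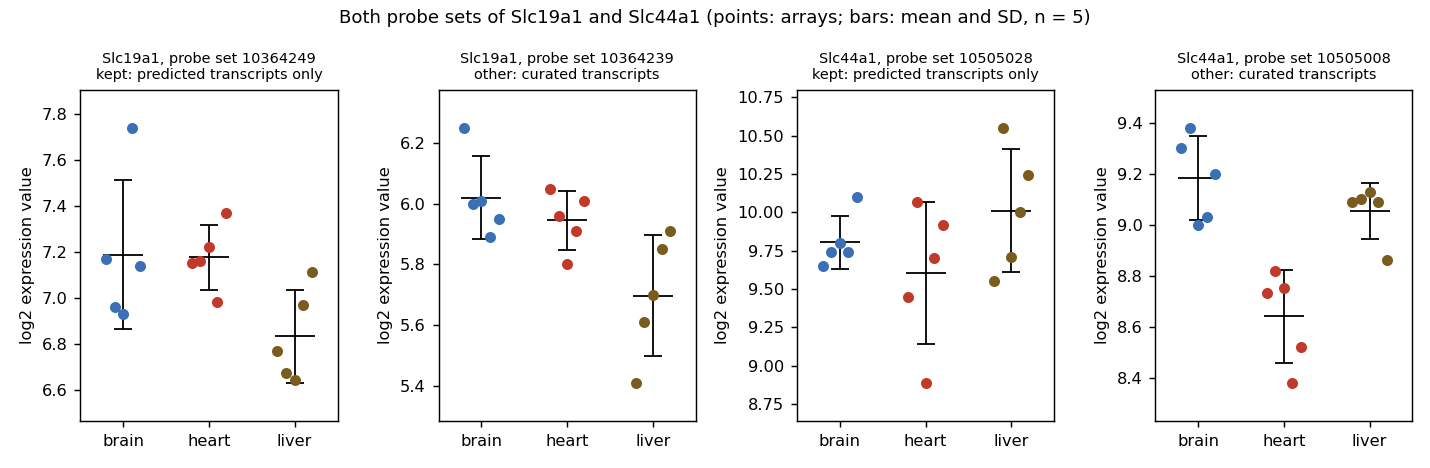
Log2 intensity on every array for both probe sets of Slc19a1 and of Slc44a1, by tissue; each point is an array. For the Slc44a1 probe set tied to curated transcripts the heart points, 8.38 to 8.82, lie below all others, whereas on the probe set with the highest mean the tissues overlap.

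Slc23a2 encodes a sodium-dependent carrier of ascorbate, the reduced form of vitamin C. Its log2 intensities were 8.38, 7.75, 8.02, 7.87 and 7.73 in the brain replicates, 8.02, 8.10, 8.13, 8.10 and 8.11 in the heart replicates and 8.15, 8.17, 8.28, 8.17 and 8.29 in the liver replicates. The heart and liver arrays lay close together, and brain replicate 1 stood above all of them while the other 4 brain arrays were at or below the lowest heart array. Brain averaged 7.95 ± 0.27, heart 8.09 ± 0.04 and liver 8.21 ± 0.07 (SD, n = 5 arrays each). Over all arrays brain minus heart was -0.14 (95% interval -0.36 to 0.07) and brain minus liver -0.26 (-0.48 to -0.05; limma adjusted p = 0.0738), and neither passed. Without brain replicate 1 brain minus heart was -0.25 (limma adjusted p = 0.0352) and brain minus liver -0.37 (limma adjusted p = 0.0014), so that brain was lower than both. With each array centred on its pan-endothelial genes, brain minus liver over all arrays was -0.50 (limma adjusted p = 0.00218). That centring moved the median of brain minus liver over all genes by -0.24. Heart minus liver was -0.12, with a 95% interval from -0.33 to 0.10.

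Slc19a2 encodes a thiamine transporter of the same family as the reduced folate carrier. Its log2 intensities were 5.34, 5.71, 5.15, 5.49 and 5.62 in the brain replicates, 5.74, 5.46, 5.01, 5.30 and 5.28 in the heart replicates and 5.46, 5.43, 5.65, 5.70 and 5.38 in the liver replicates. The 3 tissues overlapped throughout. Brain minus heart was 0.10 (95% interval -0.17 to 0.38), brain minus liver -0.06 (-0.33 to 0.21) and heart minus liver -0.17 (-0.44 to 0.11), and none was called. The gene lay below the median over genes of mean intensity, 6.11, where array values compress differences.

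**Figure D4:**
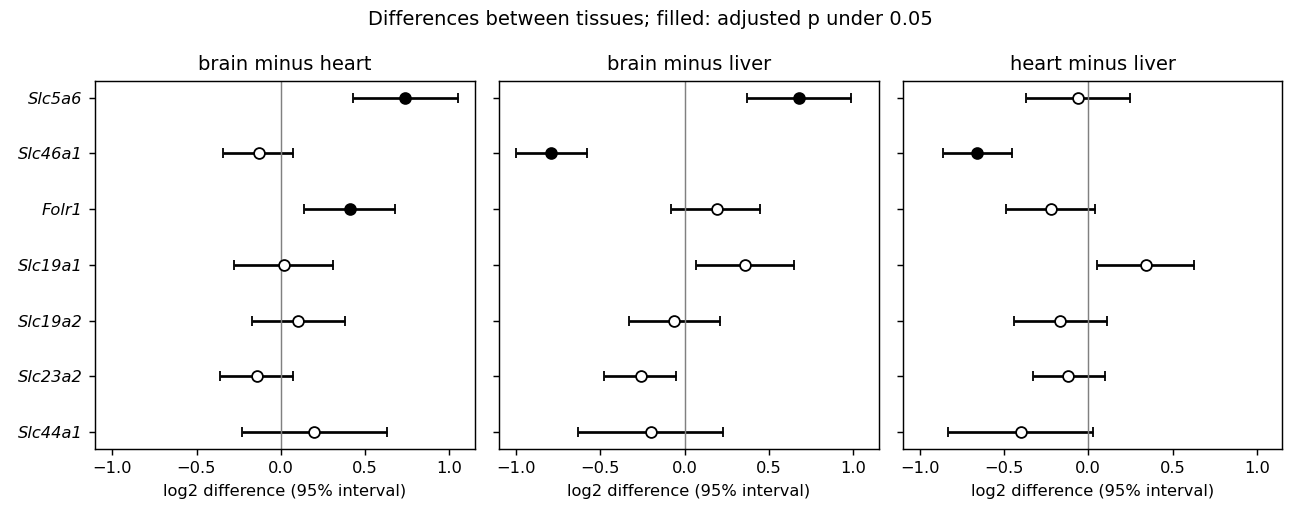
Differences between tissues in log2 units for each measured member, with 95% intervals from limma; a point right of 0 is higher in the first tissue named. Intervals clear of 0 are those of Slc5a6 for brain against both tissues, Slc46a1 for liver against both, Folr1 for brain against heart, Slc19a1 for liver against both and Slc23a2 for brain against liver; those of Slc19a1 and Slc23a2 did not pass after adjustment over all genes.

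Beyond the carriers themselves, 108 other genes that bind, move or use the same vitamins, choline or other B vitamins were listed by function. Of them, 97 were measured. The lists were chosen with earlier results of these data known, so their shares beside those of all genes describe the lists and carry no test. Of these 97, 16 were above both other tissues in brain (16.5%, beside 4.7% of all genes) and 4 lower (4.12%, beside 2.82%). In heart 1 was higher (1.03%, beside 3.73%) and 10 lower (10.3%, beside 3.27%). In liver 16 were higher (16.5%, beside 10.4%) and 5 lower (5.15%, beside 5.64%), and 59 of the 97 had no call of either kind. The median difference of the lists was 0.051 for brain minus heart, -0.017 for brain minus liver and -0.006 for heart minus liver.

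In the folate list 22 of 25 genes were measured: 3 were higher in brain than in both others and 3 lower, 3 were higher in liver and 2 lower, and 1 was lower in heart. Of the 4 efflux pumps on the list, all known to carry folates, 2 were higher in brain and 2 lower. Abcc4 had a brain mean of 10.07 ± 0.16, a heart mean of 7.43 ± 0.29 and a liver mean of 7.53 ± 0.35, and was 5.84-fold above liver (limma adjusted p = 6.72e-10). Abcg2 averaged 10.84 ± 0.17, 9.49 ± 0.04 and 8.21 ± 0.11, and was 2.55-fold above heart (limma adjusted p = 1.45e-09). In the other direction, Abcc1 was 1.27-fold and Abcc5 1.35-fold lower in brain than in heart (limma adjusted p = 0.0138 and 0.00912), and both were also lower than in liver. In liver Gart, an enzyme of purine synthesis that uses folate, averaged 7.96 ± 0.33 against 6.75 ± 0.21 in brain and 6.78 ± 0.13 in heart, 2.28-fold above heart (limma adjusted p = 2.96e-06). Ggh, which trims the glutamate tail of folates, was 1.87-fold above brain in liver. Folr2, folate receptor beta, was 1.75-fold above heart in liver (limma adjusted p = 0.0074), but its liver values of 5.73, 5.31, 6.81, 6.69 and 5.95 were highest on replicates 3 and 4, as was the mean of the Kupffer cell list, which contains it. Abcc1, Abcc5, Ggh and Folr2 were named after their values were seen.

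The biotin and pantothenate list, the substrates of Slc5a6, had 18 of 18 genes measured: 3 were higher in brain, 4 higher in liver and 3 lower in heart than in both others, and 10 had no call. Pcca, the biotin-carrying subunit of propionyl-CoA carboxylase, had a brain mean of 9.18 ± 0.25, a heart mean of 7.15 ± 0.42 and a liver mean of 7.66 ± 0.30, 2.87-fold above liver (limma adjusted p = 4.49e-06). The list held 6 genes of biotin-dependent carboxylases, and they did not share a direction. Pcx and Acaca were higher in brain as well, at 1.35-fold and 1.31-fold above heart, whereas Pccb, the partner subunit of Pcca, and Mccc2 were higher in liver, at 1.63-fold and 1.24-fold above brain, and Mccc1 had no call. All but Pcca were named after their values were seen. In the thiamine list 8 of 11 genes were measured, 7 had no call, and Tkt, transketolase, was higher in liver and lower in heart than in both others, at 1.20-fold and 1.28-fold from brain; it was named after its values were seen. In the vitamin C list 9 of 9 genes were measured. Slc2a1, the glucose carrier that also takes up oxidised vitamin C, had a brain mean of 12.67 ± 0.15, a heart mean of 7.18 ± 0.37 and a liver mean of 6.43 ± 0.16, 45.2-fold above heart (limma adjusted p = 1.04e-14). Gsto1, a glutathione transferase that reduces dehydroascorbate, was 2.11-fold higher in liver (limma adjusted p = 7.54e-05), and 6 of the 9 had no call.

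The choline list had 20 of 22 genes measured: 5 were higher in brain and 1 lower, 3 were higher in liver and 2 lower, and in heart 1 was higher and 1 lower. The 5 brain genes were 4 that the naming rule took and Lpcat3, a lysophosphatidylcholine acyltransferase at 1.64-fold above liver, named after its values were seen. Mfsd2a, the carrier of lysophosphatidylcholine, had a brain mean of 10.87 ± 0.41, a heart mean of 5.07 ± 0.18 and a liver mean of 4.99 ± 0.17, 55.5-fold above heart (limma adjusted p = 2.01e-14). Gpcpd1, which splits glycerophosphocholine, averaged 10.58 ± 0.08, 7.03 ± 0.35 and 7.41 ± 0.12, 9.04-fold above liver (limma adjusted p = 1.62e-12). Flvcr2, a carrier for which choline transport has been described, averaged 8.65 ± 0.26, 5.60 ± 0.12 and 5.18 ± 0.22, 8.28-fold above heart (limma adjusted p = 5.23e-12). Chka, choline kinase alpha, averaged 8.06 ± 0.43, 6.66 ± 0.93 and 6.64 ± 0.14, 2.65-fold above heart (limma adjusted p = 0.00528), with heart replicate 1 at 8.29 and the other heart arrays at 6.04 to 6.48. Slc44a2, of the same family as Slc44a1, went the other way: it had a brain mean of 7.94 ± 0.15, a heart mean of 8.75 ± 0.08 and a liver mean of 9.52 ± 0.17, so that brain was 1.76-fold below heart (limma adjusted p = 4.08e-06) and liver 1.70-fold above heart (limma adjusted p = 5.27e-06). It was named after its values were seen.

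The list of other B vitamin carriers and activating enzymes had 21 of 25 genes measured: 4 were higher in brain than in both others, 3 higher in liver and 4 lower in heart, and 13 had no call. Slc52a3, a riboflavin transporter, had a brain mean of 8.52 ± 0.29, a heart mean of 6.89 ± 0.23 and a liver mean of 6.66 ± 0.19, 3.10-fold above heart (limma adjusted p = 9.97e-08). Pdxk, the kinase that activates pyridoxal, averaged 8.21 ± 0.18, 6.50 ± 0.16 and 6.41 ± 0.19, 3.28-fold above heart (limma adjusted p = 2.02e-09). Nampt, which turns nicotinamide into the mononucleotide precursor of NAD, averaged 10.46 ± 0.25, 8.22 ± 0.29 and 8.80 ± 0.14, 3.16-fold above liver (limma adjusted p = 3.35e-08). In liver, Tcn2, the plasma carrier transcobalamin, averaged 10.96 ± 0.15 in liver, 9.09 ± 0.22 in brain and 8.44 ± 0.14 in heart, 3.66-fold above brain (limma adjusted p = 2.05e-10). Cd320, its receptor, had a brain mean of 7.14 ± 0.21, a heart mean of 6.21 ± 0.13 and a liver mean of 5.94 ± 0.16, 1.90-fold above heart (limma adjusted p = 4.21e-06), and was named after its values were seen.

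**Figure D5:**
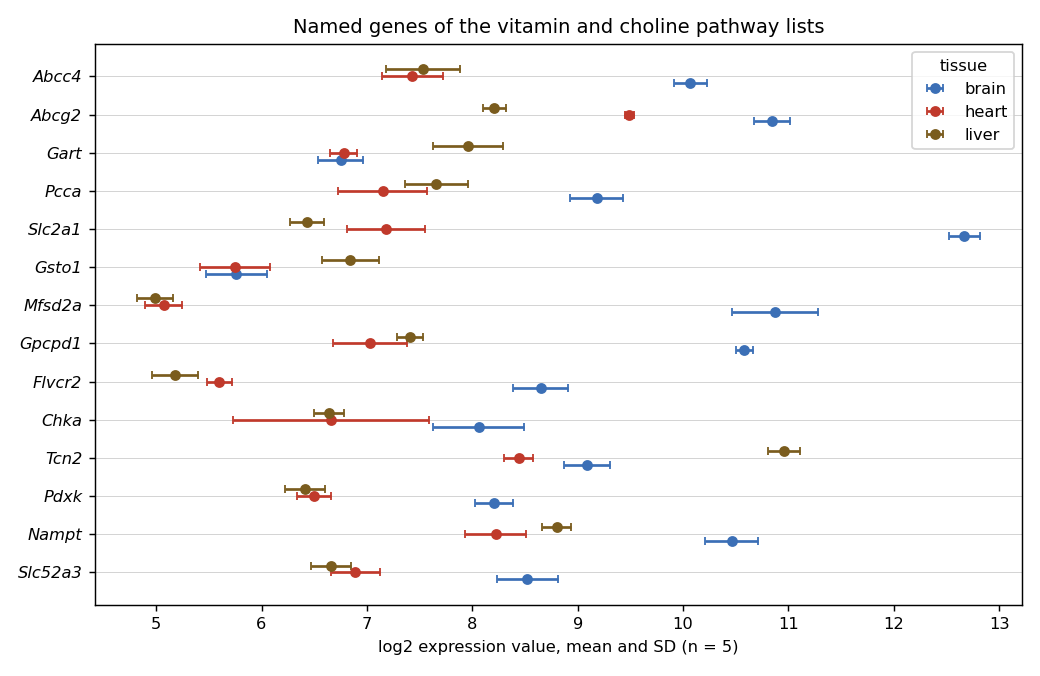
Mean log2 intensity per tissue for the genes of the vitamin and choline lists that the naming rule took. Liver, heart and brain are separate rows per gene. A point is the mean over the arrays of a tissue, and bars mark the SD. Brain means of Slc2a1 and Mfsd2a lie farthest from the other tissues, and liver means are highest for Tcn2, Gart and Gsto1.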

How the data were processed

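The deposited table holds log2 intensities of 35556 probe sets for 15 arrays, which the authors computed by RMA in Affymetrix Power Tools, per the submitters' processing notes. The genome build is not given in the sources used here, and coordinates were therefore omitted. RMA compresses large differences, and the number of arrays limits the precision. The array annotation listed 23410 probe sets, of which 21789 carried 1 gene symbol, 1621 carried several and were left out, and 12146 are unnamed here. For 999 genes with several probe sets the highest mean was kept, leaving 19938 genes. Correlations between arrays were 0.978 to 0.993 within a tissue and 0.918 to 0.960 between tissues.

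The values were fitted without further normalization in limma 3.58.1 (R 4.3.3) with 1 mean per tissue over all 15 arrays (12 residual and 4.75 prior degrees of freedom), and tested by moderated contrasts with Benjamini-Hochberg adjustment and a threshold of 0.05. The fit was tested on simulated data. Replicates may share preparation steps, so p-values measure the spread between these pools only. The members and lists were chosen with earlier results of these data known. From each list, genes called in a tissue against both others with a log2 difference of at least 1 from the nearer tissue were named, at most 4 per list, and the 3 genes with the highest r were named by likeness. Any others are marked as named after their values were seen. Alternatives were a replicate block, leaving out arrays, only the 2 tissues compared, centring on pan-endothelial genes, means over probe sets, a filter on dim genes, a robust trend prior and array weights. Curated probe sets, fits without heart replicates 1 and 3 or liver replicates 1, 3 and 4, and likeness without brain replicate 1 were added after seeing the data.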

Additional observations from a re-analysis of the deposited data

Results flagged for a closer look

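Among 69 groups of 5 arrays, 6 held an array whose gap to its nearest neighbour exceeded Dixon's critical value of 0.71 of the group's range; chance gives about 1 in 20 groups. Slc23a2 was lowest on heart replicate 1, at 8.02 beside 8.10 for the next array. The curated probe set of Slc44a1 was lowest on liver replicate 5, at 8.86 beside 9.09. Pcca was lowest on liver replicate 5, at 7.13 beside 7.72. Chka was highest on heart replicate 1, at 8.29 beside 6.48. Tcn2 was highest on brain replicate 1, at 9.47 beside 9.08. Nampt was lowest on brain replicate 4, at 10.02 beside 10.52.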

How the results depend on the processing

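Slc5a6 higher in brain and Slc46a1 higher in liver than in both other tissues kept their calls under each alternative run. The lowest Slc5a6 value over liver was 0.44 (limma adjusted p = 0.0211), with arrays centred on pan-endothelial genes. In the 15 fits without 1 array the ranges were 0.57 to 0.82 and 0.51 to 0.76 for Slc5a6 over heart and liver, and -0.84 to -0.74 and -0.70 to -0.58 for brain and heart minus liver of Slc46a1. Of 522 alternative values of member differences, 486 kept direction and side of the threshold, 20 gained a call, 8 lost it and 8 changed sign. All 350 values of the named list genes kept direction and side. Unlike the members, those genes were picked as called with a log2 difference of at least 1, so few calls could be lost. Counts without 1 array each ranged from 1 to 2 members higher in brain than heart, 0 to 1 lower, 1 to 2 higher and 1 to 2 lower in brain than liver, 0 to 1 higher in heart than liver, and 0 to 1 lower in brain or lower in liver than in both; of list genes, 1 to 3 were higher in heart than in both. Centring on pan-endothelial genes moved the all-gene medians by -0.11, -0.24 and -0.13 (brain minus heart, brain minus liver, heart minus liver). It left 1 member higher in brain than heart and gave 2 lower in brain than liver and 2 lower in heart than liver, 7 list genes lower in brain and 2 lower in liver, and turned Slc19a1 brain minus heart to -0.09 and Folr1 brain minus liver to -0.06. The mean of all probe sets gave 2 members higher in brain than liver, 1 higher and 2 lower in heart than liver, and 1 each lower in heart and lower in liver than in both. Curated probe sets gave 2 higher in brain than liver, 2 lower in heart than liver and 1 lower in heart than in both, with Slc44a1 brain minus liver at 0.13. Dropping genes below the median, Slc19a2 among them, gave 2 higher in brain than liver and 0 list genes higher in heart; fitting only the 2 tissues compared gave 1 higher in heart than liver; array weights gave 2 lower in brain than liver. Without heart replicates 1 and 3, 1 member was higher in brain than heart, Slc44a1 brain minus heart was -0.09 and 0 list genes were higher in heart. Without liver replicates 1, 3 and 4, 1 was higher in brain than heart, 2 were lower in heart than liver, 2 list genes were higher in heart, and Slc19a2 brain minus liver was 0.06. Leaving out 1 array, Slc19a1 brain minus heart ranged from -0.12 to 0.08 and Slc19a2 brain minus liver from -0.12 to 0.02. The cause of these changes was not tested. Apart from the curated probe sets, the shares of all genes under these alternatives are not given here.

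Deviations from the tissue means correlated at -0.00053 to 0.204 (median 0.0952) over 15 same-numbered pairs, 6 of them over 0.1, and at -0.167 to 0.126 (median -0.0241) over 60 others, 2 of them over 0.1. Of 30 comparisons of an array with the 5 arrays of another tissue, the same number correlated best in 20, not all, which is a hint from the data and not from the design that the numbers share something. Not every same-numbered pair was over 0.1 and the labels do not say what the number marks, so the block was kept as an alternative. With the replicate block the counts were 2 members higher and 0 lower in brain than heart, 1 and 1 in brain against liver, and 0 and 1 in heart against liver, the same counts as without it; Slc5a6 was 0.74 above heart (limma adjusted p = 0.000819).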
